A study of Mus musculus with 18 samples.

Results

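The response to RANKL after 3 days was compared between libraries labelled Zmat1 knockout (KO) and wild type (WT). For each gene the quantity was the change from day 0 to day 3 in the libraries labelled KO minus the same change in those labelled WT, here called the interaction and given on the log2 scale. A negative interaction means that the level went up less, or down more, in the libraries labelled KO. The comparison used 12 of the 18 RNA sequencing libraries, chosen by label and day, with 3 in each of 4 groups. The cells were bone marrow-derived macrophages from 4-to-8-week-old Zmat1-/- mice, a global knockout on the C57BL/6 background, and their Zmat1+/+ littermates. At day 0 the cells of both labels had received M-CSF, a growth factor for macrophages, and no RANKL, and at day 3 those of both labels had received M-CSF with RANKL for 3 days. No single gene was called for the interaction, so the data are described by gene family and pathway.

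RANKL binds its receptor RANK on macrophages, and NF-kB, AP-1 factors and the ITAM costimulation receptors then raise NFATc1, the main transcription factor of osteoclasts. The cells fuse through proteins such as DC-STAMP, form an actin ring around integrin αvβ3, and secrete acid through the vacuolar proton pump together with cathepsin K and matrix metalloproteinases. Osteoclast formation is also known for a rise in mitochondrial respiration, and macrophage genes are shut down as it proceeds. ZMAT1 is a zinc finger protein, and the study asked how its loss bears on osteoclast formation, on TRIM46, a ubiquitin ligase, and on YAP1, the effector of the Hippo pathway.

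Total counts of the 12 libraries ran from 13860786 to 16548944, and 14241 of 34745 genes passed the filter on low counts. Zmat1 (ENSMUSG00000052676, chromosome X, 134971372 to 135009209) had 91, 32 and 43 counts in the day 0 libraries labelled WT and 49, 99 and 59 in those labelled KO. At day 3 it had 56, 80 and 39 counts (WT) and 95, 76 and 85 counts (KO), which is not the order the genotypes would give, so each direction below refers to a label and not to a genotype. Macrophage and osteoclast markers followed the days. The macrophage receptor Csf1r measured 5830.2, 7289.5 and 4139.6 CPM (counts scaled to the same library size) at WT day 0 and 1426, 1698 and 1256 CPM at WT day 3, and the calcitonin receptor Calcr was at 0 counts in every day 0 library, which allows up to 3 counts per library, and measured 13.4, 15.1 and 17 CPM at WT day 3. Calcr measured 10.2, 13.8 and 6.68 CPM at KO day 3. Libraries 3 of WT day 0 and of KO day 3 and library 2 of KO day 0 stood apart from the others of their groups. The mean log2 CPM of 28 stromal and osteoblast markers was 1.75, 3.44 and 6.27 in WT day 0 libraries 1, 2 and 3. It was 5.91, 4.50 and 5.99 at KO day 0, so WT library 3 lay near KO libraries 1 and 3. The mitochondrial genome genes were at 10.2, 9.36 and 8.74 (WT) and 8.70, 10.3 and 8.94 (KO) at day 0. WT library 1 and KO library 2, the highest there, have double-hyphen titles. The mean log2 CPM of 18 neutrophil granule markers was 3.00, 1.65 and 4.67 in KO day 3 libraries 1, 2 and 3. Values with libraries left out are given beside many of the results below.

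Over all tested genes, 0 of 14241 (0%) had an adjusted p under 0.05 for the interaction in the edgeR quasi-likelihood test, and the smallest adjusted p was 0.317. The DESeq2 Wald test called 4 genes, 3 higher and 1 lower, with values given at the end. At an unadjusted p under 0.05 there were 769 genes (5.40%). With a fold above 1.5 or below 0.66 as well, here the unadjusted threshold, 266 genes were higher (1.87%) and 217 lower (1.52%). With total counts in place of TMM scaling these became 166 and 246, and without WT day 0 library 3 the lower count was 810. The median interaction was 0.020, with quartiles of -0.24 and 0.30, and 48.0% of the genes were below 0.

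Among genes that responded to RANKL, the interaction more often had the sign opposite to the response. In these bulk libraries fewer cells of a type and less RNA per cell cannot be told apart. Genes were chosen by the response averaged over both labels, with equal weight for each. The same libraries gave the choice and the interaction. If the spread between libraries differs between the labels, the choice can tilt the shares, and this was not tested. Of the 4404 genes called as higher at day 3 (30.9% of those tested), the median change was 1.22 in the libraries labelled WT and 1.005 in those labelled KO, and 61.9% had an interaction below 0. Of the 4551 called as lower (32.0%), the medians were -0.95 and -0.81, and 31.4% had an interaction below 0. In the 5286 genes not called, 50.8% were below 0. The median interaction was -0.14 in the genes that rose and 0.13 in those that fell. Both signs held in all 23 alternatives, which put the share below 0 at 56.0% to 80.3% in the genes that rose and 26.0% to 38.1% in those that fell, with both 80.3% and 26.0% coming from the fit without WT day 0 library 3.

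**Figure D1:**
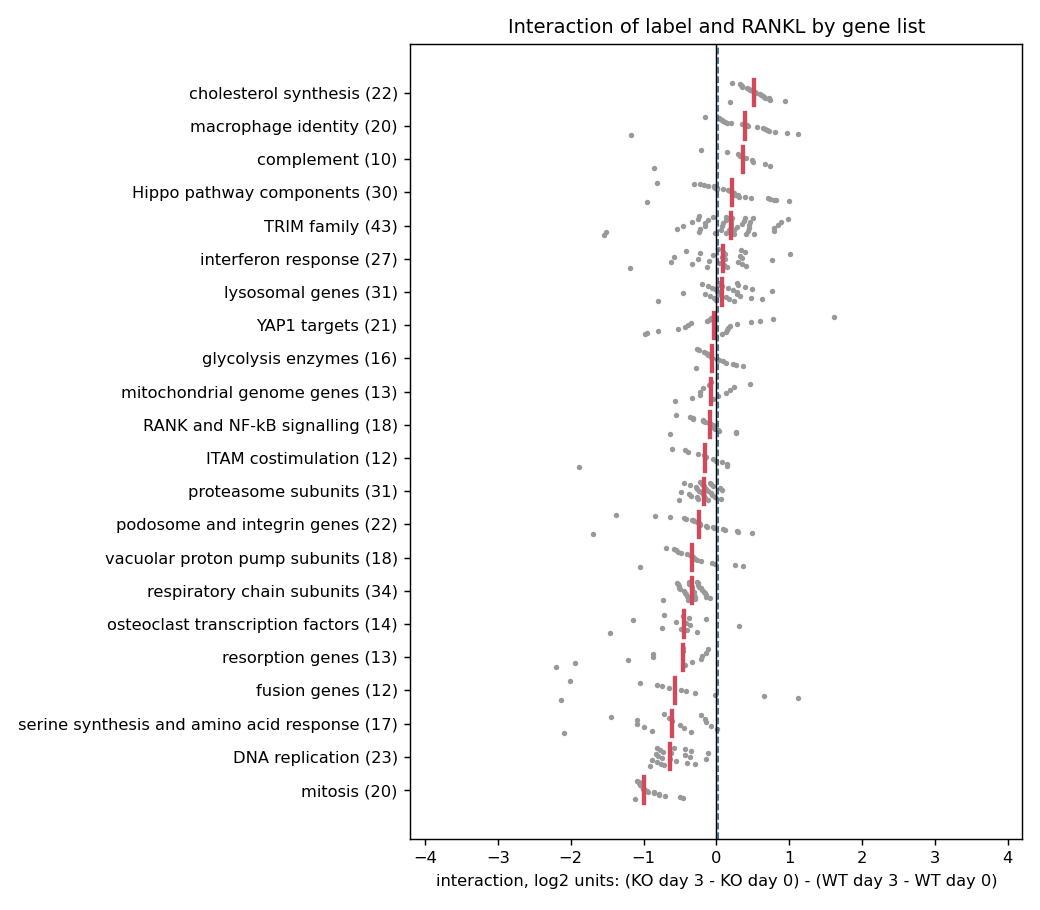
Interaction of label and RANKL (log2 units, x axis) for the tested genes of 22 lists, with the number of genes in brackets. Each grey point is 1 gene, red bars are list medians and the dashed blue line is the median over all genes, 0.020. All 22 cholesterol synthesis genes lie above 0, and all 34 respiratory chain, 13 resorption, 23 DNA replication and 20 mitosis genes lie below it.

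RANKL raised more cholesterol synthesis genes in the libraries labelled KO than in those labelled WT, and by a larger median. This pathway turns acetyl-CoA into cholesterol through mevalonate, and its genes are switched on by SREBP2 when sterols run low. All 22 members had an interaction above 0, with a median of 0.52 and a highest value of 0.94. At an adjusted p under 0.05 RANKL raised 13 members in the libraries labelled WT, where 23.7% of all genes rose, and 20 in those labelled KO, where 20.2% rose. None fell in either label, where 26.5% (WT) and 22.3% (KO) of all genes did. The median change was 0.50 and 1.13. The label difference was -0.082 at day 0 and 0.44 at day 3. At that day the 3 libraries labelled KO lay above the 3 labelled WT in 17 of the 22 genes, against 15.9% of all genes.

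Of these genes 6 were higher at the unadjusted threshold (1.87% of all genes). Insig1 (ENSMUSG00000045294, chromosome 5, 28071363 to 28078662), whose protein holds SREBP in the endoplasmic reticulum and which is itself an SREBP target, measured 167, 152 and 123 CPM in the day 0 libraries labelled WT, 105, 124 and 117 CPM in those labelled KO, 162, 144 and 185 CPM in the day 3 libraries labelled WT and 199, 179 and 207 CPM in those labelled KO. The levels overlapped at day 0, where KO library 2 and WT library 3 were about equal, and at day 3, where KO library 2 lay between WT libraries 1 and 3. Its interaction was 0.60 (SE 0.186, adjusted p = 0.91), where adjusted p-values are from edgeR unless DESeq2 is named. Lss (ENSMUSG00000033105, chromosome 10, 76531588 to 76557138), which closes the sterol rings, measured 27.5, 26.4 and 33.5 CPM (WT day 0), 24.7, 27.4 and 26.6 CPM (KO day 0), 79.4, 69.1 and 65.4 CPM (WT day 3) and 101, 85 and 118 CPM (KO day 3). The day 0 levels overlapped, and every day 3 library labelled KO was above every one labelled WT. Its interaction was 0.66 (SE 0.21, adjusted p = 0.91). Fdft1 (ENSMUSG00000021273, chromosome 14, 63145153 to 63177793), squalene synthase, measured 29.3, 21.8 and 21 CPM (WT day 0), 21.2, 26.8 and 21.4 CPM (KO day 0), 45, 45.7 and 42 CPM (WT day 3) and 66.2, 59 and 74.1 CPM (KO day 3), with an interaction of 0.64 (SE 0.224, adjusted p = 0.91). Its day 0 levels overlapped and its day 3 levels did not.

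Dhcr7 (ENSMUSG00000058454, chromosome 7, 143823145 to 143848410), which makes the last step to cholesterol, measured 62.1, 35.6 and 48.6 CPM (WT day 0), 41.9, 51.5 and 42.2 CPM (KO day 0), 49, 41.9 and 41.5 CPM (WT day 3) and 65.9, 51.3 and 85.4 CPM (KO day 3). The day 3 levels did not overlap, and the interaction was 0.72 (SE 0.272, adjusted p = 0.91). The other 2 were Cyp51 (0.74) and Msmo1 (0.94), demethylases of the sterol ring, both named after their values were seen. Srebf2, which encodes SREBP2, had 0.21 and was also named after its value was seen. The list median lay between 0.39 and 0.62 in all 23 alternatives. The count at the threshold rested on single libraries: it was 0 when KO day 3 library 3 was left out, 1 when WT day 0 library 1 was, and 10 when KO day 0 library 2 was. The median was 0.41, 0.39 and 0.62 in these fits.

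**Figure D2:**
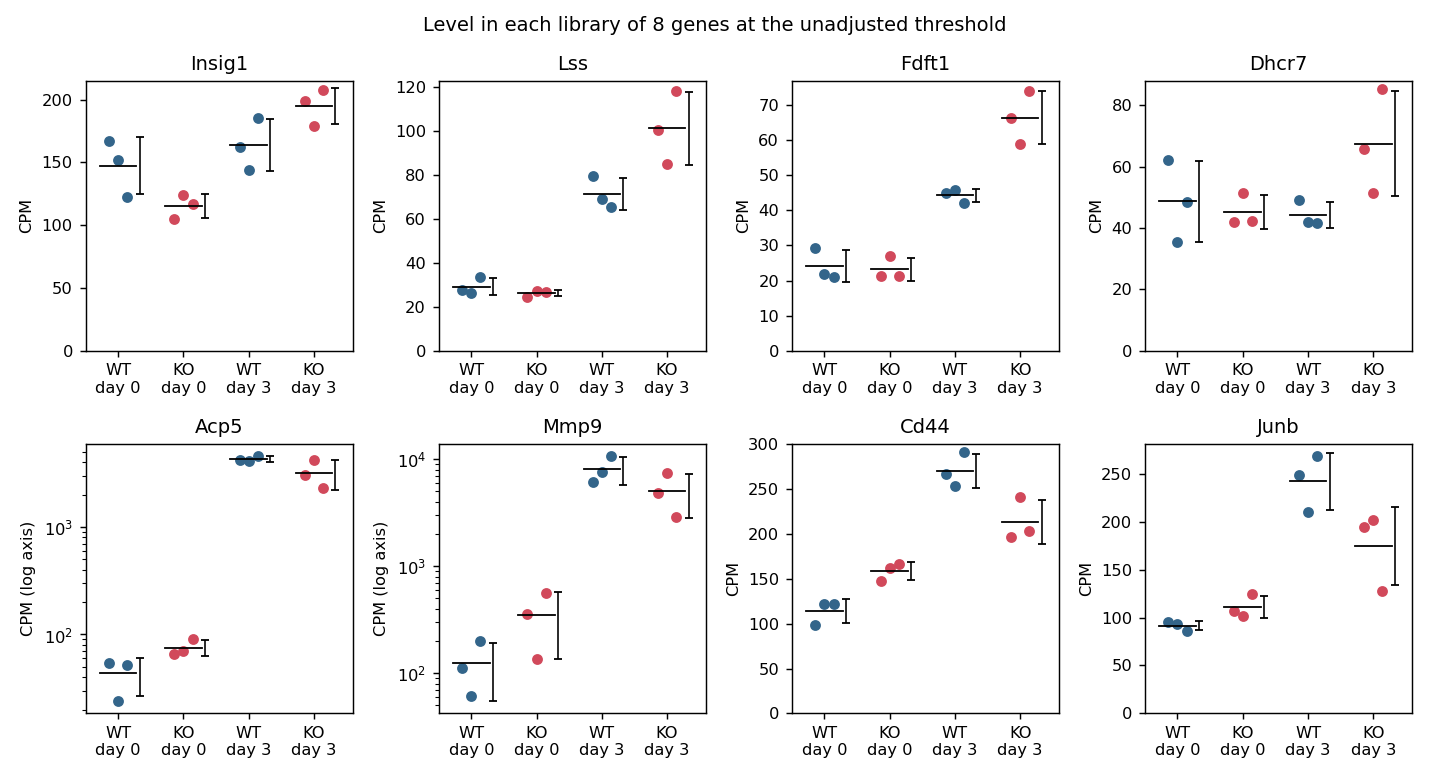
Level in each library (CPM, y axis, logarithmic for Acp5 and Mmp9) of 4 cholesterol synthesis genes and 4 osteoclast genes that passed the unadjusted threshold, by label and day. Points are libraries 1, 2 and 3 from left to right, horizontal bars are means and vertical bars are SD (n = 3). For Lss, Fdft1 and Dhcr7 the day 3 libraries labelled KO all lie above those labelled WT, and for Cd44 they all lie below.

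Promoters of cholesterol synthesis genes are shown because all members had an interaction of 1 sign. RefSeq promoters (GRCm38.p6, from 250 bases before to 50 after the start) were found for 15 of the 22 genes. The sterol regulatory element was searched as TCACNCCAC on both strands, with no overlap with the other motif searched. It was in 1 of these 15 genes. By promoter it was in 1 of their 18 (5.56%), against 1.24% of all 32851 promoters. Hmgcs1, the HMG-CoA synthase of the mevalonate pathway (interaction 0.53), held it, 137 bases before the start, and Insig1 did not hold these letters in this window. Capitals mark the match.
Hmgcs1 (chr13:119690101-119690400, plus strand): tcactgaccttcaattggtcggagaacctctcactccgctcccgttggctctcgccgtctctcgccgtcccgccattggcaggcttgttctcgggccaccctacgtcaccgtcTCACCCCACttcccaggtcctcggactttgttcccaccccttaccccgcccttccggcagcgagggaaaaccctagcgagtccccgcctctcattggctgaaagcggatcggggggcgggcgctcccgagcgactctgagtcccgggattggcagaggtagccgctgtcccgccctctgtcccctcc
Insig1 (chr5:28071162-28071461, plus strand): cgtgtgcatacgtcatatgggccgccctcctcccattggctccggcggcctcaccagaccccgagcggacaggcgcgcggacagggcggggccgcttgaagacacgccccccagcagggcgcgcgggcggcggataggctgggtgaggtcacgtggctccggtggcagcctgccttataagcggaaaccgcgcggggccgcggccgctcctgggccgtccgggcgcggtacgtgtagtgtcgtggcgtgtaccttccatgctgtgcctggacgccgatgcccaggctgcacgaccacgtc

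The nuclear genes of the respiratory chain had interactions of the opposite sign. Their products build complexes I to V of the inner mitochondrial membrane, apart from cytochrome c (Cycs), an electron carrier that was also in the list. All 34 members had an interaction below 0, with a median of -0.33 and a range of -0.74 to -0.093. RANKL raised 33 of the 34 in the libraries labelled WT (23.7% of all genes) and 25 in those labelled KO (20.2%), with median changes of 0.89 and 0.58. The median label difference was 0.027 at day 0 and -0.32 at day 3. The mean log2 CPM of the list was 6.40, 6.47 and 6.42 at WT day 0, 6.36, 6.51 and 6.53 at KO day 0, 7.40, 7.28 and 7.51 at WT day 3 and 7.14, 7.25 and 6.86 at KO day 3. At day 3 all libraries labelled KO were below all labelled WT in 20 of the 34 genes, against 13.3% of all genes. None passed the unadjusted threshold, since no fold was that large in a gene with a p under 0.05. Cox5b (ENSMUSG00000061518, chromosome 1, 36691484 to 36693681), a subunit of cytochrome c oxidase, had the smallest p. It measured 52.3, 65.2 and 60.6 CPM (WT day 0), 59.1, 61.4 and 70.7 CPM (KO day 0), 122, 96.4 and 123 CPM (WT day 3) and 86.5, 94.1 and 72.4 CPM (KO day 3), with an interaction of -0.53 (SE 0.211, adjusted p = 0.91). The list median ran from -0.42 to -0.22 over the alternatives, with the value nearest 0 in the fit without both WT day 0 library 3 and KO day 3 library 3. The 13 genes of the mitochondrial genome itself had a median of -0.075, which ran from -0.59 to 0.70 and changed sign without KO day 0 library 2 (0.70). The gene with the smallest p there was mt-Nd6 (-0.57), a complex I subunit. RANKL raised 14 of the 16 glycolysis enzymes in each label (23.7% and 20.2% of all genes), with median changes of 1.44 and 1.46, a median interaction of -0.067, and 0.37 for Pfkl, a phosphofructokinase.

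Promoters of respiratory chain genes are shown for the same reason. RefSeq promoters were found for 24 of the 34 genes, and the site of NRF1, a factor known to bind promoters of respiratory genes, was searched as GCGCANGCG on both strands. It was in 7 of the 24 genes (29.2%). By promoter it was in 7 of their 25 (28%), against 6.25% of all promoters. It was also in 3 of the 15 cholesterol synthesis genes. Cycs, which encodes cytochrome c and had the lowest interaction of the list (-0.74), and Sdha of complex II (-0.14) are given with the matches in capitals.
Cycs (chr6:50566520-50566819, minus strand): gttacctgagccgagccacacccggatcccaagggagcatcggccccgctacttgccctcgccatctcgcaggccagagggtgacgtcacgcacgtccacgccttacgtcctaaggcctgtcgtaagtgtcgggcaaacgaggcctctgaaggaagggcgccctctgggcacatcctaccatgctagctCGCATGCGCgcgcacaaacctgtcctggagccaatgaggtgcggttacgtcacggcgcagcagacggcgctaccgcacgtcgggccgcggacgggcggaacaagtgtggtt
Sdha (chr13:74350191-74350490, minus strand): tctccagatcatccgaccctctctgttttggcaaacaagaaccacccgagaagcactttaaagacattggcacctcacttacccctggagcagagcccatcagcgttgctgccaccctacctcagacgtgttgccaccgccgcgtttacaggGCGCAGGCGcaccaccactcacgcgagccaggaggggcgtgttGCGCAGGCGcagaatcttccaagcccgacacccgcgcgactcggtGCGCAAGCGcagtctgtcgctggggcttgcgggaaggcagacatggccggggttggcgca

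**Figure D3:**
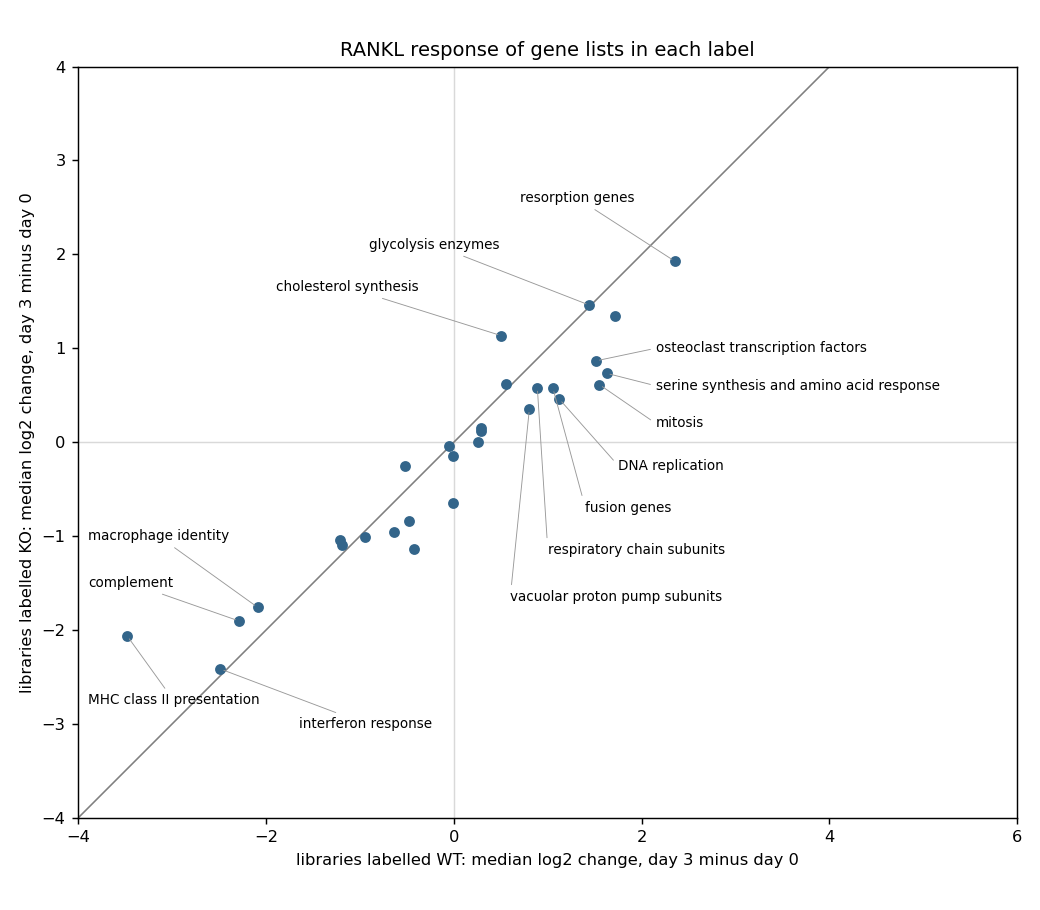
Median log2 change from day 0 to day 3 of each gene list in the libraries labelled WT (x axis) and in those labelled KO (y axis), for 29 lists without the markers of other cell types. Lists on the diagonal changed by the same median in both labels. Cholesterol synthesis lies above it, at 0.50 and 1.13, and resorption, respiratory chain and mitosis genes lie below it.

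Among the osteoclast families, the 13 resorption genes all had an interaction below 0, with a median of -0.45. These encode the acid, protease and transport proteins of the resorbing membrane. Their median change was 2.35 in the libraries labelled WT and 1.93 in those labelled KO, and RANKL raised 9 in each label, against 23.7% (WT) and 20.2% (KO) of all genes. The median label difference was 0.17 at day 0, when 3 genes were higher at the unadjusted threshold (2.89% of all genes), and -0.42 at day 3, when 0 were lower (0.864% of all genes). The 3 at the threshold at day 0 and the 3 at the threshold for the interaction (1.52% of all genes) were both Car2, Acp5 and Mmp9, of which Acp5 was named after its values were seen.

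Car2 (ENSMUSG00000027562, chromosome 3, 14886273 to 14900770), the carbonic anhydrase that supplies protons, measured 0.495, 0.464 and 1.14 CPM in the day 0 libraries labelled WT, 1.35, 1.46 and 2.4 CPM in those labelled KO, 50.4, 58.7 and 90.6 CPM in the day 3 libraries labelled WT and 45.5, 60.3 and 20.8 CPM in those labelled KO. At day 0 it was low, and higher in every library labelled KO, while at day 3 KO library 2 lay above WT libraries 1 and 2. Its interaction was -1.94 (SE 0.712, adjusted p = 0.91). Acp5 (ENSMUSG00000001348, chromosome 9, 22126731 to 22135746), the acid phosphatase by which osteoclasts are stained, measured 54.6, 24 and 51.6 CPM (WT day 0), 66.1, 70.0 and 89.9 CPM (KO day 0), 4158, 4099.8 and 4573 CPM (WT day 3) and 3066, 4220.3 and 2300.4 CPM (KO day 3). It was also higher in every day 0 library labelled KO, and its day 3 levels overlapped. Its interaction was -1.22 (SE 0.489, adjusted p = 0.91).

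Mmp9 (ENSMUSG00000017737, chromosome 2, 164940780 to 164955850), a gelatinase of osteoclasts that neutrophils also make, measured 112, 61.5 and 198 CPM (WT day 0), 356, 135 and 566 CPM (KO day 0), 6079, 7617 and 10711 CPM (WT day 3) and 4826, 7373 and 2908 CPM (KO day 3). Its levels overlapped between the labels on both days, and its interaction was -2.20 (SE 0.891, adjusted p = 0.91). The neutrophil gene S100a8 measured 216, 58.6 and 325 CPM at WT day 0 and 643, 285 and 1331 CPM at KO day 0, in the same order of libraries as Mmp9 at that day within each label, and its part in the Mmp9 value was not tested. Ctsk, the collagen-degrading cathepsin K, measured 25.6, 7.2 and 24.4 CPM (WT day 0), 22.3, 28 and 19.7 CPM (KO day 0), 3974, 4436 and 5918 CPM (WT day 3) and 3007, 4450.0 and 2124 CPM (KO day 3). It overlapped on both days and had -0.87 (SE 0.603, adjusted p = 0.926), or -0.48 when WT day 0 library 2 was left out. The median of the list ran from -0.73 to -0.26, with -0.73 when WT day 0 library 3 was left out and -0.26 when KO day 3 library 3 was.

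The vacuolar proton pump had 16 of 18 subunit genes below 0 and a median of -0.33. RANKL raised 10 in the libraries labelled WT (23.7% of all genes) and 5 in those labelled KO (20.2% of all genes), the latter a share near that of all genes. The label difference was -0.0016 at day 0 and -0.35 at day 3, when 8 of the 18 genes were lower in every library labelled KO (13.3% of all genes). Atp6v1h, a regulatory subunit of the pump's cytosolic part, measured 72.9, 56.3 and 58.1 CPM (WT day 0), 57.1, 88.9 and 54.8 CPM (KO day 0), 161, 146 and 193 CPM (WT day 3) and 112, 132 and 88.1 CPM (KO day 3), with an interaction of -0.69 (SE 0.288, adjusted p = 0.91), or -0.44 when KO day 0 library 2 was left out. The list median ran from -0.43 to -0.15, with -0.18 without KO day 0 library 2.

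The fusion genes had 10 of 12 members below 0 and a median of -0.56 (-0.78 to -0.32 over the alternatives). Cd44 (ENSMUSG00000005087, chromosome 2, 102811141 to 102901665), a hyaluronan receptor, measured 98.9, 122 and 122 CPM in the day 0 libraries labelled WT, 148, 162 and 167 CPM in those labelled KO, 267, 254 and 291 CPM in the day 3 libraries labelled WT and 196, 241 and 203 CPM in those labelled KO. The libraries labelled KO were all higher at day 0 and all lower at day 3, and the interaction was -0.82 (SE 0.24, adjusted p = 0.91). Cd81 (ENSMUSG00000037706, chromosome 7, 143052739 to 143067934), a tetraspanin, measured 63.1, 174 and 66.1 CPM (WT day 0), 86.3, 71.3 and 60.0 CPM (KO day 0), 109.5, 143 and 81.5 CPM (WT day 3) and 154, 163 and 203 CPM (KO day 3) and had an interaction of 1.12 (SE 0.478, adjusted p = 0.91). WT day 0 library 2 was far above the other day 0 libraries, and at day 3 every library labelled KO was above every one labelled WT. P2rx7, an ATP receptor, had 0.65 (SE 0.309, adjusted p = 0.91). When WT day 0 library 2 was left out, Cd81 had 0.47 and P2rx7 0.39, and the list median was -0.32. Ocstamp and Dcstamp, the transmembrane fusion proteins, were at 0 to 1.6 and 0 to 0.801 CPM at day 0. Their interactions of -2.14 and -2.01 had SE of 1.46 and 1.47, and ran from -3.85 to -1.31 and from -3.51 to -0.45, lowest when WT day 0 library 3 and highest when KO day 0 library 3 was left out. At day 3 Dcstamp measured 93.7, 99.4 and 132 CPM (WT) and 73, 91.8 and 42.7 CPM (KO).

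The osteoclast transcription factors had 13 of 14 members below 0 and a median of -0.44 (-0.56 to -0.29). The mean log2 CPM of the list was 5.04, 5.15 and 5.11 at WT day 0, 5.41, 5.27 and 5.34 at KO day 0, 6.61, 6.49 and 6.77 at WT day 3 and 6.31, 6.49 and 5.95 at KO day 3. Every library labelled KO was above those labelled WT at day 0, and at day 3 KO library 2 was level with WT library 2. At the unadjusted threshold 2 members were lower at day 3 (0.864% of all genes). They were Prdm1 (-0.70), a repressor of macrophage genes, and Ppargc1b (-0.65), a coactivator of mitochondrial genes, both named after their values were seen. Junb (ENSMUSG00000052837, chromosome 8, 84976909 to 84978748), an AP-1 factor, measured 95.5, 93.4 and 86.2 CPM in the day 0 libraries labelled WT, 107, 101 and 124 CPM in those labelled KO, 249, 209.8 and 268 CPM in the day 3 libraries labelled WT and 195, 202 and 128 CPM in those labelled KO, with every library labelled KO higher at day 0 and lower at day 3. Its interaction was -0.74 (SE 0.292, adjusted p = 0.91). Fos, the AP-1 factor without which osteoclasts do not form, measured 25.4, 54.4 and 13.8 CPM (WT day 0), 45.9, 36.4 and 55.8 CPM (KO day 0), 199.6, 163 and 179 CPM (WT day 3) and 115, 114 and 61.6 CPM (KO day 3). At day 3 all libraries labelled KO were lower, at day 0 the levels overlapped, and the interaction was -1.46 (SE 0.769, adjusted p = 0.921). Nfatc1 measured 107, 111 and 114 CPM (WT day 0), 97.6, 84.1 and 100.5 CPM (KO day 0), 639, 509 and 766 CPM (WT day 3) and 447, 521 and 301 CPM (KO day 3). It was lower in every day 0 library labelled KO, its day 3 levels overlapped, and it had -0.36 (SE 0.272, adjusted p = 0.927), or -0.17 when KO day 3 library 3 was left out. Fos was named after its values were seen.

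The signalling genes that act before these factors had medians nearer 0. The 18 genes of RANK and NF-kB signalling had a median of -0.086, with -0.64 (SE 0.415, adjusted p = 0.926) for Nfkbia, the inhibitor of NF-kB, and 0 at the threshold. The 12 genes of ITAM costimulation had a median of -0.16, which was -0.02 when WT day 0 library 3 was left out and -0.32 when library 1 of that group was. Btk (ENSMUSG00000031264, chromosome X, 134542336 to 134583570), a kinase downstream of ITAM receptors, measured 108, 121 and 93 CPM in the day 0 libraries labelled WT, 108, 116 and 88.1 CPM in those labelled KO, 98.3, 85.6 and 109 CPM in the day 3 libraries labelled WT and 64.9, 62.7 and 58.3 CPM in those labelled KO. The labels overlapped at day 0 and not at day 3, and the interaction was -0.61 (SE 0.192, adjusted p = 0.91). The 8 repressors of osteoclast formation had a median of -0.039, with -0.83 for Id2 (-1.25 to -0.55 with each library left out). The median was -0.44 when WT day 0 library 3 was left out, -0.64 without both that library and KO day 3 library 3, and above 0 in 4 alternatives.

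The podosome and integrin genes, which attach the cell to bone, had 17 of 22 members below 0 and a median of -0.24 (-0.31 to -0.18). The 3 members at the threshold, all lower (1.52% of all genes), were Itgb3, Src and Itgav. Itgb3 (ENSMUSG00000020689, chromosome 11, 104608000 to 104670476), the β3 integrin, measured 20.1, 9.44 and 21.5 CPM in the day 0 libraries labelled WT, 48.6, 23.6 and 72.6 CPM in those labelled KO, 163, 176 and 201 CPM in the day 3 libraries labelled WT and 132, 192 and 148 CPM in those labelled KO. Its day 0 levels were higher in every library labelled KO, its day 3 levels overlapped, and its interaction was -1.70 (SE 0.59, adjusted p = 0.91). Src, the kinase that the integrin activates, had -1.38 (SE 0.531, adjusted p = 0.91) and Itgav, the partner αv, had -0.85 (SE 0.354, adjusted p = 0.91), both named after their values were seen. Src measured 12.6, 8.13 and 12.2 CPM (WT day 0), 19.2, 13.6 and 20.1 CPM (KO day 0), 249, 169 and 230.4 CPM (WT day 3) and 131, 173 and 96 CPM (KO day 3), higher in every day 0 library labelled KO and overlapping at day 3.

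**Figure D4:**
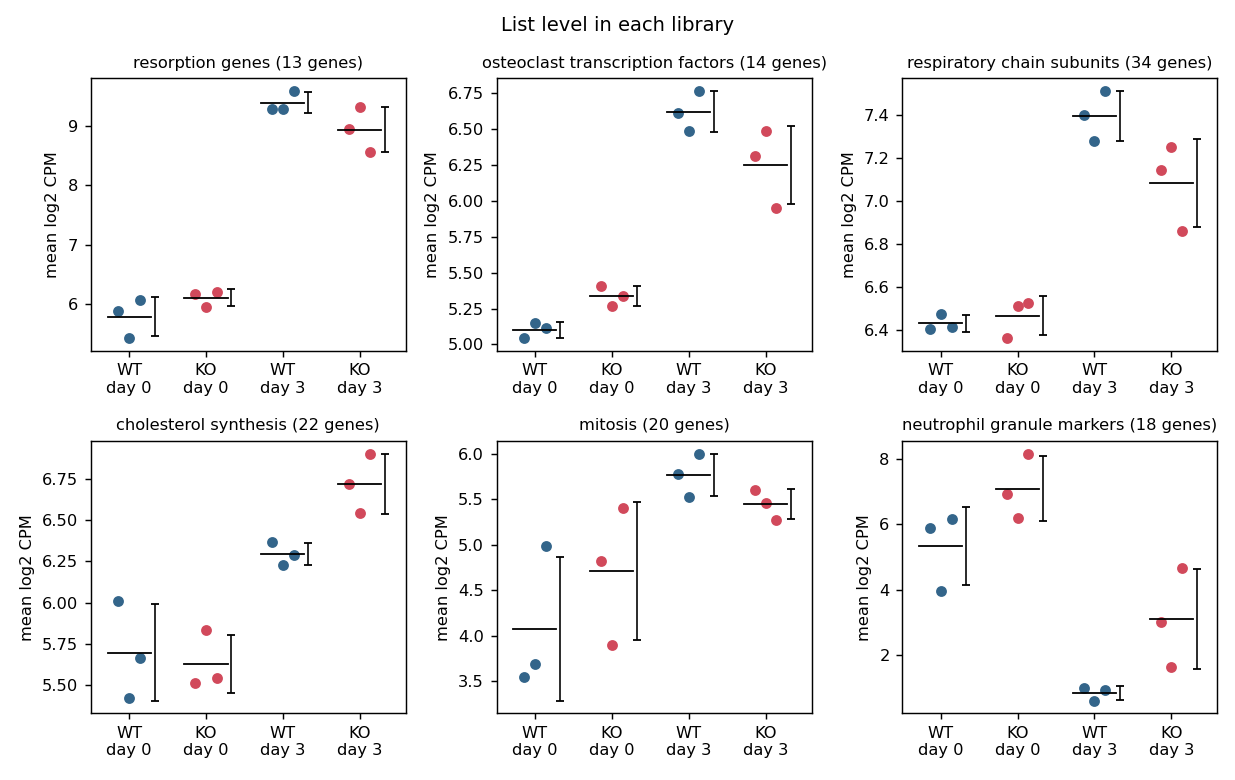
Mean log2 CPM of 6 gene lists in each library, by label and day. Points are libraries 1, 2 and 3 from left to right, horizontal bars are means and vertical bars are SD (n = 3). At day 3 the cholesterol synthesis list is at 6.54 to 6.91 in the libraries labelled KO and 6.23 to 6.37 in those labelled WT, and the respiratory chain list at 6.86 to 7.25 and 7.28 to 7.51.

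Cell division genes gave the most negative medians of the lists without other cell types. The 20 mitosis genes all lay below 0 with a median of -0.99, and the 23 DNA replication genes all lay below 0 with a median of -0.64. RANKL raised 6 of the former and 9 of the latter in the libraries labelled WT, where 23.7% of all genes rose, and 0 of either in those labelled KO, where 20.2% did. The median changes were 1.55 (WT) and 0.61 (KO) for mitosis and 1.12 and 0.46 for DNA replication, above 0 in both labels. The median label difference was 0.64 at day 0 and -0.32 at day 3 for mitosis, larger at day 0. For DNA replication it was 0.35 and -0.24. The mean log2 CPM of the mitosis list was 3.55, 3.68 and 4.98 at WT day 0, 4.82, 3.89 and 5.40 at KO day 0, 5.77, 5.53 and 5.999 at WT day 3 and 5.60, 5.46 and 5.27 at KO day 3. The groups overlapped at day 0, where WT library 3 was far above the other WT libraries, and at day 3 KO library 1 lay above WT library 2. None of the genes had an interaction p under 0.05. The smallest p among the mitosis genes was that of Cenpe, a kinetochore motor, with -1.02 (SE 0.797, adjusted p = 0.927), and those named next were Plk1 (-1.09), Kif11 (-1.004) and Ccnb2 (-1.05), a kinase, a spindle motor and a cyclin. Among the DNA replication genes it was that of Cdt1, which loads the helicase, with -0.64 (SE 0.401, adjusted p = 0.926), followed by Rfc4 (-0.81), Mcm6 (-0.75) and Mcm2 (-0.82). The medians were -1.61 and -1.08 when WT day 0 library 3 was left out, where Cenpe had -1.61, Plk1 -1.76 and Mcm2 -1.50, and that of mitosis was -0.54 when KO day 0 library 3 was.

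The genes of serine synthesis and the amino acid response had 16 of 17 members below 0 and a median of -0.61 (-0.84 to -0.40). RANKL raised 12 in the libraries labelled WT (23.7% of all genes) and 7 in those labelled KO (20.2%). Asns (ENSMUSG00000029752, chromosome 6, 7675169 to 7693254), asparagine synthetase, measured 4.95, 5.57 and 18.7 CPM in the day 0 libraries labelled WT, 15.2, 16.8 and 14.9 CPM in those labelled KO, 57, 47.9 and 90.3 CPM in the day 3 libraries labelled WT and 40.3, 42.7 and 31.7 CPM in those labelled KO. WT day 0 library 3 was above the libraries labelled KO and the other WT libraries were below them, while at day 3 all libraries labelled KO were lower. The interaction was -1.44 (SE 0.647, adjusted p = 0.91), and it was -2.33 without WT day 0 library 3. Atf4, the transcription factor that drives this response, had -0.35 (SE 0.164, adjusted p = 0.91) and its target Chac1 had -2.09 (SE 1.00, adjusted p = 0.91) at under 10 CPM in every library, with Chac1 at -3.32 when WT day 0 library 3 was left out. Slc1a5, a glutamine carrier, had -0.66 (SE 0.355, adjusted p = 0.921).

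Of the genes that RANKL lowers, the macrophage identity list had 18 of 20 members above 0 and a median of 0.39. RANKL lowered 13 in the libraries labelled WT (26.5% of all genes) and 14 in those labelled KO (22.3%), with median changes of -2.09 and -1.76. Maf (ENSMUSG00000055435, chromosome 8, 115682942 to 115707794), a transcription factor of macrophages, measured 802, 901 and 645 CPM in the day 0 libraries labelled WT, 705, 757 and 652 CPM in those labelled KO, 177, 239 and 136 CPM in the day 3 libraries labelled WT and 298, 206 and 272 CPM in those labelled KO. The labels overlapped on both days and the interaction was 0.64 (SE 0.295, adjusted p = 0.91). At day 0, 4 of the 20 genes were lower in every library labelled KO (5.22% of all genes). Leaving out KO day 3 library 3 gave a list median of 0.042, and leaving out libraries 2 and 3 of WT day 3 in turn gave 0.73 and 0.15. Of the 27 interferon response genes, 26 fell in each label (26.5% and 22.3% of all genes). The median interaction was 0.091 and changed sign in 8 of the alternatives, from -0.34 when WT day 0 library 3 was left out to 0.37 when library 2 of that group was. Oas2, which senses viral RNA, had -1.19 (SE 0.516, adjusted p = 0.91), or -0.79 when KO day 0 library 3 was left out.

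The 12 MHC class II genes, of antigen presentation, had a median of 0.89 with 10 above 0, and 6 of them were higher at day 3 at the unadjusted threshold (4.82% of all genes). The H2-Aa chain measured 112, 24.2 and 69.9 CPM (WT day 0), 158, 96.1 and 221 CPM (KO day 0), 1.39, 4.53 and 2.64 CPM (WT day 3) and 13.5, 3.92 and 27.9 CPM (KO day 3). The labels overlapped on both days. The summed CPM of the list also overlapped on both days. It was 2614 to 7760 (WT) and 5684 to 7657 (KO) at day 0, and 1500 to 2243 (WT) and 1448 to 2347 (KO) at day 3. In 2 genes a group had 3 or fewer counts in every library, and with these at their bound the median was 0.32. None passed the threshold for the interaction. The gene with the smallest p was H2-Oa, whose day 3 counts in the libraries labelled WT were 0. Ifi30 (-0.52), H2-DMb2 (0.96) and H2-DMa (1.08), which prepare or load the antigen, followed. The median was 0.065 when the 2 day 0 libraries with a double hyphen in their titles were left out, and 0.20 without KO day 3 library 3.

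The Hippo pathway, YAP1 targets and TRIM genes were examined because the study's question concerned them. The 30 Hippo components had a median of 0.21 with 21 above 0, the 21 tested YAP1 targets had -0.031 with 10 above 0 and -0.98 for Dock5, and the 43 tested TRIM genes of 67 had 0.20 with 29 above 0. Vgll4 (ENSMUSG00000030315, chromosome 6, 114860628 to 114969994), a TEAD cofactor that competes with YAP1, measured 37.7, 65.6 and 50.1 CPM in the day 0 libraries labelled WT, 45.4, 32.3 and 45.1 CPM in those labelled KO, 22.8, 30.3 and 20.5 CPM in the day 3 libraries labelled WT and 35.3, 33.6 and 35.1 CPM in those labelled KO. The labels overlapped at day 0 and not at day 3, and the interaction was 0.82 (SE 0.303, adjusted p = 0.91). Trim6, a ubiquitin ligase, measured 6.18, 9.21 and 6.22 CPM (WT day 0), 5.99, 5.08 and 4.59 CPM (KO day 0), 2.27, 2.18 and 1.85 CPM (WT day 3) and 3.1, 2.26 and 3.12 CPM (KO day 3), with an interaction of 0.89 (SE 0.331, adjusted p = 0.91). It was lower in every day 0 library labelled KO, and the day 3 levels overlapped. Trim46 had 0.50 (SE 0.889, adjusted p = 0.981), Yap1 -0.11 (SE 1.11, adjusted p = 0.998), Stk4 0.30 (SE 0.436, adjusted p = 0.971), Lats1 0.25 (SE 0.118, adjusted p = 0.91) and Cyr61, a YAP1 target, -0.95 (SE 1.21, adjusted p = 0.961). With each library left out in turn, Cyr61 ran from -2.72 to -0.42, Yap1 from -2.24 to 0.41 and Trim46 from -1.16 to 1.04, each with its lowest value when WT day 0 library 3 was left out, and Stk4 ran from -0.036 to 0.52. Mst1, a gene under 1 CPM in its group means, had -0.25. Under this symbol it is not the gene of the Hippo kinase MST1, which is Stk4.

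Markers of stromal cells were unequal between the labels. At day 3 their mean log2 CPM was 6.88, 7.46 and 7.41 in the libraries labelled WT and 8.32, 8.60 and 8.12 in those labelled KO, and 20 of 28 were higher in every library labelled KO (15.9% of all genes). The YAP1 targets measured 5.20, 5.41 and 5.02 in the WT libraries of day 3 and 5.53, 5.72 and 6.18 in the KO libraries. KO day 3 library 3 was the highest of its group for YAP1 targets and the lowest for stromal markers. At day 0 the YAP1 targets were at 2.53, 3.34 and 4.88 in WT libraries 1, 2 and 3, and the TRIM genes at 4.33, 4.15 and 4.41. Without WT day 0 library 3 the median interaction was -1.94 for stromal markers, against 0.30 with it, -1.21 for YAP1 targets, -0.23 for Hippo components and 0.058 for TRIM genes. The summed CPM of the stromal markers at day 3 was 16971 to 22572 (WT) and 31931 to 44950 (KO). The part of stromal RNA in the Hippo and YAP1 values, and in the other lists and genes, was not tested.

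Markers of blood cells were also unequal between the labels. The 18 neutrophil granule markers, at 5.88, 3.96 and 6.16 at WT day 0, 6.92, 6.18 and 8.16 at KO day 0, 1.00, 0.61 and 0.95 at WT day 3 and 3.00, 1.65 and 4.67 at KO day 3 (mean log2 CPM), fell in all 18 genes in both labels (26.5% and 22.3% of all genes). Of them 9 were higher in the libraries labelled KO at day 0 (2.89% of all genes) and 15 at day 3 (4.82%) at the unadjusted threshold, and 8 and 10 did not overlap (4.90% of all genes at day 0 and 15.9% at day 3). Their median interaction was 1.31 with 17 of 18 above 0, or 1.19 with 1 gene at its bound. Ltf, lactoferrin, had 1.66 (SE 1.08, adjusted p = 0.926), Ngp 1.83, Mmp8 1.22 and Ly6g 1.87, and 0 members passed the threshold. Leaving out KO day 3 library 3 gave 0.64 for Ltf, 0.41 for Ngp, 0.23 for Mmp8, 0.83 for Ly6g and a median of 0.18, and leaving out WT day 0 library 3 as well gave -0.32. The 10 tested B cell markers had 1.74, or 1.40 with 4 genes at their bound, and 1.20 to 2.23 over the alternatives. Their mean log2 CPM was 2.90, 0.48 and 3.78 at WT day 0, 4.02, 3.48 and 3.62 at KO day 0, -0.14, -0.15 and -0.27 at WT day 3 and 2.64, 1.07 and 1.58 at KO day 3. Cd79b, a part of the B cell receptor, measured 9.48, 5.73 and 16.6 CPM (WT day 0), 21.8, 12.4 and 26.8 CPM (KO day 0), 1.08, 0.588 and 0.617 CPM (WT day 3) and 5.48, 3.49 and 5.04 CPM (KO day 3) and had 1.66 (SE 0.718, adjusted p = 0.91). The labels overlapped at day 0 and not at day 3. Ighm, an antibody heavy chain, had 1.71, and Pax5 and Ms4a1 were at or under the floor in every WT day 3 library. The part of these cells in the lists above was not tested. The MHC class II genes measured 2.51, 2.77 and 2.27 at WT day 3 and 3.67, 2.74 and 4.33 at KO day 3 on the same scale.

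**Figure D5:**
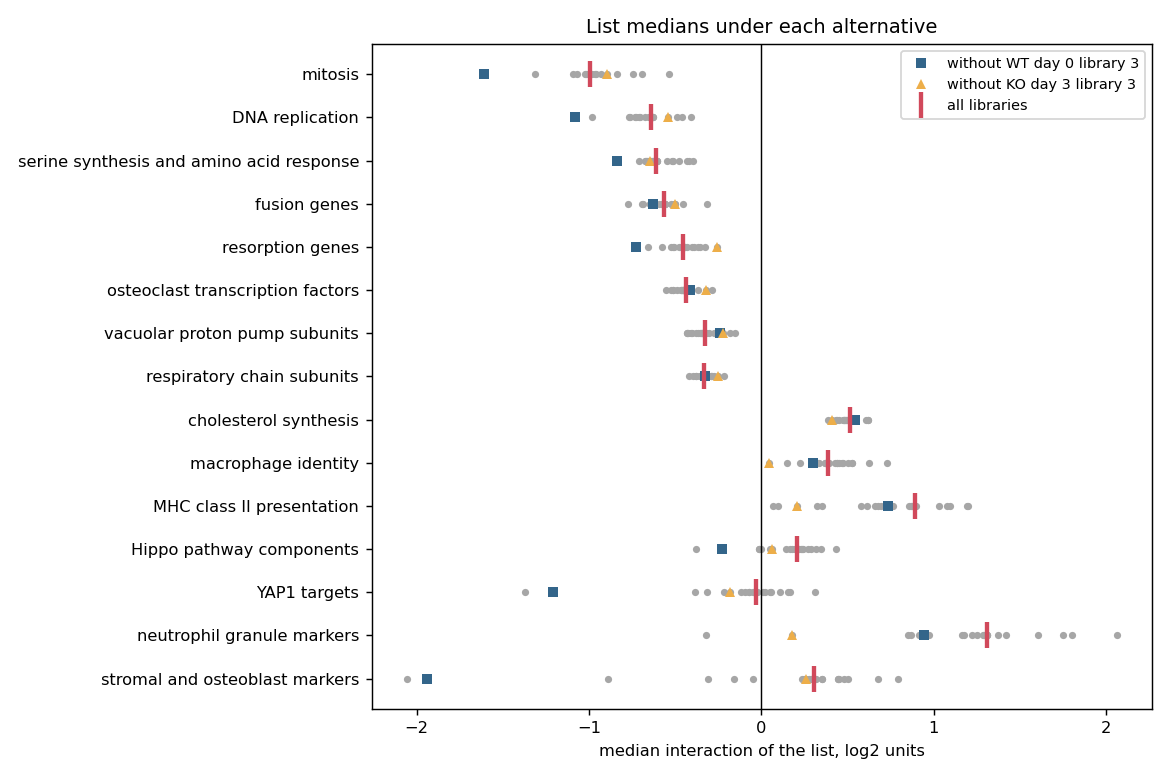
Median interaction (log2 units, x axis) of 15 gene lists with all libraries (red bars) and in 23 alternatives (grey points). Blue squares are fits without WT day 0 library 3 and orange triangles fits without KO day 3 library 3. The cholesterol synthesis median stays between 0.39 and 0.62, while that of stromal markers goes from 0.30 to -1.94 without WT day 0 library 3.

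Single genes with the smallest p for the interaction belonged to none of these lists. Cercam (ENSMUSG00000039787, chromosome 2, 29869164 to 29882840), a glycosyltransferase-like protein, measured 31.5, 26.2 and 26.5 CPM in the day 0 libraries labelled WT, 19.9, 24.6 and 23.7 CPM in those labelled KO, 17.8, 24.5 and 14.5 CPM in the day 3 libraries labelled WT and 38.6, 51.4 and 54.8 CPM in those labelled KO. It was lower in every day 0 library labelled KO and higher in every day 3 library labelled KO, with an interaction of 1.65 (SE 0.271, adjusted p = 0.317). Porcn (ENSMUSG00000031169, chromosome X, 8193848 to 8206525), the acyltransferase that makes Wnt proteins active, measured 8.16, 6.58 and 7.37 CPM (WT day 0), 7.63, 5.9989 and 5.02 CPM (KO day 0), 6.45, 6.17 and 4.77 CPM (WT day 3) and 13.3, 20.6 and 11.5 CPM (KO day 3), with an interaction of 1.63 (SE 0.321, adjusted p = 0.706). The labels overlapped at day 0 and did not at day 3. Afg3l2, a protease of the inner mitochondrial membrane, measured 40.2, 39.5 and 34.8 CPM (WT day 0), 59.7, 58.4 and 50.5 CPM (KO day 0), 98.4, 94 and 111 CPM (WT day 3) and 83.2, 85.9 and 71.5 CPM (KO day 3) and had -0.89 (SE 0.16, adjusted p = 0.41). It was higher in every day 0 library labelled KO and lower in every one of day 3. Cercam, Porcn and Afg3l2 were 3 of the 4 genes the DESeq2 Wald test called (adjusted p of 9.31e-05, 0.0140 and 0.000357). The fourth was Pcdhga1 (adjusted p 0.0402 in DESeq2, higher), a protocadherin whose gene shares exons with its neighbours, so its counts are uncertain. It was at the floor in the KO day 0 libraries and measured 5.34 ± 6.65 CPM at WT day 0, 1.91 ± 1.51 CPM at WT day 3 and 16.6 ± 25.9 CPM at KO day 3 (SD, n = 3).

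Next by p were Emilin1, an extracellular matrix protein, Rsrc1, a splicing factor, and Dclk2, a kinase of the microtubule cytoskeleton, which were higher. Emilin1 measured 79.7, 127 and 120.1 CPM (WT day 0), 116, 82.7 and 113 CPM (KO day 0), 124, 147 and 108 CPM (WT day 3) and 233, 265 and 281 CPM (KO day 3), with an interaction of 1.11 (SE 0.261, adjusted p = 0.91). Rsrc1 had 1.19 and Dclk2 2.56, the latter with 4.04, 7.89 and 3.15 CPM at WT day 0, 0.499, 0.923 and 1.24 CPM at KO day 0 and 4.34 CPM or less at day 3. Lower were Set, a histone chaperone (-1.13), Nfkbid, a nuclear inhibitor of NF-kB (-1.11), Kri1 (-0.60) and Mir142hg, the host transcript of a miRNA (-2.01), each with an adjusted p of 0.910. Nfkbid (ENSMUSG00000036931, chromosome 7, 30421732 to 30428746) measured 15.2, 16.1 and 11 CPM (WT day 0), 18.1, 22.6 and 17 CPM (KO day 0), 24.4, 27.1 and 28.7 CPM (WT day 3) and 19, 19.3 and 12.3 CPM (KO day 3). It was higher in every day 0 library labelled KO and lower in every one of day 3. At the unadjusted threshold for the label difference at day 0, 1.06% of all genes were lower, and 1 of the 12 fusion genes, P2rx7, was among them.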

How the data were processed

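RNA was sequenced by the authors from bone marrow-derived macrophages in 18 libraries. Total RNA was taken with a column kit and messenger RNA libraries made with a SMARTer kit. The deposited table holds read counts and FPKM values per gene on GRCm38.p4 (mm10), the latter from StringTie per the labels. The counts, which are whole numbers, were used here and the deposited FPKM columns were not. The aligner, the counting program and its strand setting are not given in the sources used here.

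All 18 libraries were fitted as 6 groups of label and day with edgeR 4.0.16 in R 4.3.3 (filterByExpr, TMM, glmQLFit and glmQLFTest, common dispersion 0.0945), with 2-sided p-values and Benjamini-Hochberg adjustment over 14241 genes. SE were taken from the F statistic. CPM were scaled by TMM, and log2 CPM used a prior count of 2. The floor of a group was 3 counts in each of its libraries. Nothing says that the libraries came from separate animals, so p-values measure the spread between libraries, and floors cover counting error only. The script was tested on simulated data. These had less spread between libraries than the real data, so that test does not show what could be called here.

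The comparison, its members, the 37 gene lists and the tests were chosen with earlier results of these data known, so lists are given by counts and medians with no test. Genes were named where called, as the 5 smallest p in each direction with a mean of at least 1 CPM in a group, as the quantitative PCR genes, as the up to 4 smallest p in each of the 8 lists with medians farthest from that of all genes, and as the smallest p in each other list. Others were named after their values were seen. Symbols on several lines (59) were matched by identifier. The alternatives were DESeq2 size factors, total counts, no filter, and at least 5 CPM in 3 libraries. They also took the DESeq2 1.42.0 Wald test, only the 12 libraries, replicate blocks, and the title style as a covariate. In another the day 0 libraries with double-hyphen titles were left out, while those of day 1 were kept. Each library was also left out in turn. Added after seeing the data was a fit with WT day 0 library 3 and KO day 3 library 3 left out together.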

Additional observations from a re-analysis of the deposited data

How the results depend on the processing

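In all 23 alternatives the medians of the resorption, proton pump, fusion, osteoclast transcription factor, podosome, respiratory chain, serine, cholesterol and B cell lists kept their sign and moved by less than 1 SD between libraries. Over all results and alternatives, 2799 values were scored as the same. For single genes this meant the same sign and side of the threshold. For medians and counts it meant a move of less than that spread (1.5 times for counts), whatever the sign. Of the rest, 42 medians or counts moved by more, 18 values of single genes changed sign, and 3 passed the threshold (Cercam, Porcn and Afg3l2 with DESeq2). Medians near 0 thus changed sign within the 2799. The chemokine median did so in 10 alternatives and the interferon median in 8. The count of higher genes was 166 with total counts (lower 246), and that of lower genes 326 with title style as a covariate. The DESeq2 Wald test called 3 higher and 1 lower. The MHC class II median was 0.35 under the stricter filter and 0.065 with only single-hyphen titles at day 0, where Stk4 was -0.046 and Yap1 0.11. The stricter filter left no T and NK cell marker, so it gave no value there.

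Without both WT day 0 library 3 and KO day 3 library 3, chosen after seeing the data, 708 genes were lower and the median of the genes that rose was -0.43. List medians there were -0.64 for repressors, -0.38 for Hippo, -1.37 for YAP1 targets, 0.065 for TRIM, -0.30 for proteasome, -1.62 for mitosis, 0.094 for MHC class II, -0.31 for complement, -0.32 for neutrophil, -2.05 for stromal, -0.72 for mast cell and -0.86 for quantitative PCR genes. Fitted values of H2-Oa, which was at the floor in WT day 3, of Trim46 and of Mst1 were -1.81, -1.21 and 0.45.

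With 1 library left out at a time, the lower genes numbered from 127, leaving out WT day 3 library 3, to 810, leaving out that of WT day 0, and the median of the genes that rose was -0.47 to -0.083. List medians ran from -0.32 to -0.020 (ITAM), -1.21 to 0.31 (YAP1 targets), 0.058 to 0.24 (TRIM), -0.27 to -0.10 (proteasome), -0.25 to -0.078 (ribosomal), -1.08 to -0.41 (DNA replication), -1.61 to -0.54 (mitosis), -0.33 to 0.20 (lipid), -0.59 to 0.70 (mitochondrial genome), 0.042 to 0.73 (macrophage), 0.20 to 1.20 (MHC class II), 0.18 to 2.06 (neutrophil), -1.94 to 0.79 (stromal), 0.96 to 3.22 (T and NK cell), 0.14 to 1.11 (dendritic cell) and -1.09 to -0.22 (quantitative PCR). Genes that changed sign were Yap1 (-2.24 to 0.41), Mst1 (-1.15 to 0.67), H2-Oa (-1.73 to 4.59), Trim46 (-1.16 to 1.04), Zmat1 (-0.26 to 0.78), Stk4 (-0.036 to 0.52) and mt-Nd6 (-0.86 to 0.0016). The causes of these moves were not tested.

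The libraries share replicate numbers. The deviations of same-numbered day 0 and day 3 libraries correlated by -0.023 to 0.111 (WT) and 0.13 to 0.398 (KO). Of 12 libraries, 7 correlated best with their own number among the 3 of the other day and the same label. These values do not settle whether the libraries were paired, and the main fit assumed no pairing. With the replicate number as a block, 0 genes were called. At the unadjusted threshold 269 were higher and 214 lower with 1 block over both labels, and 289 and 240 with a block within each label. Day 0 counts near 0 limit the interaction of late osteoclast genes and lymphocyte markers.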

Other observations

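Most other families had medians near that of all genes, 0.020. The 31 proteasome subunits had 28 members below 0 and a median of -0.17, and Psmd12, a lid subunit, measured 50.1, 41.4 and 46.1 CPM (WT day 0), 55, 64 and 56.3 CPM (KO day 0), 77.3, 64.2 and 78.3 CPM (WT day 3) and 63.1, 68.6 and 64.6 CPM (KO day 3) with an interaction of -0.51 (SE 0.142, adjusted p = 0.91). Its fold was under the threshold. The 48 cytosolic ribosomal proteins had 42 below 0 and a median of -0.12, with -0.88 for Rps13. The 31 lysosomal genes had 0.078, with -0.81 for Arsb, and RANKL lowered 22 of them in the libraries labelled WT (26.5% of all genes) and 24 in those labelled KO (22.3%). The 19 lipid handling genes had -0.00091, with -0.59 for Dgat1, an enzyme of triglyceride synthesis.

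Of the 11 iron handling genes, with a median of -0.012, Steap4, a metalloreductase, was lower at the unadjusted threshold. It measured 0.495, 0.232 and 0.644 CPM (WT day 0), 1.64, 0.308 and 1.46 CPM (KO day 0), 56.3, 82.8 and 115 CPM (WT day 3) and 43.9, 57.2 and 20.4 CPM (KO day 3), and its interaction was -2.36 (SE 0.796, adjusted p = 0.91). The 21 chemokine genes had a median of 0.022, with -1.76 for Ccr1, the 16 inflammatory genes -0.092, with 0.78 for Nlrp3, and the 10 complement genes 0.36, with 0.66 for C1qb. None of these 3 lists had a gene at the threshold.

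Among other cell types, Ibsp, a bone matrix gene of osteoblasts, had 3.34 (SE 1.52, adjusted p = 0.91), the 1 stromal marker at the threshold, or 1.11 when WT day 0 library 3 was left out. The 13 mast cell, basophil and eosinophil markers had 0.44, but -0.93 with 6 genes at their bound, and -2.30 for Gata2, and the 6 dendritic cell markers 0.34, or -0.074 with 1 gene at its bound. The 10 erythroid and platelet markers had 0.18, with 1.55 for Pf4. Both tested T and NK cell markers were above 0, with 1.498 for Lck. With each library left out in turn the medians ran from -0.18 to 0.17 (iron), -0.029 to 0.19 (lysosomal), -0.15 to 0.15 (chemokine), -0.24 to 0.087 (inflammatory), 0.087 to 0.76 (complement), -0.44 to 1.10 (mast cell) and -0.41 to 0.68 (erythroid), so that the complement list alone of these kept its sign there.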
